A study of Mus musculus with 45 samples.

Results

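The transcriptomes of control embryos at the late two-cell stage and at the morula stage were compared across all genes, to describe the change that embryos of this study underwent between these stages without the degrader. The comparison used the 5 RNA-seq libraries labelled DMSO from these stages, 3 of late two-cell embryos and 2 of morulae, out of 18 RNA-seq libraries and 45 samples of all kinds. The tables listed 55385 genes, of which 17990 had enough counts to be tested. The study removed GABPA, a transcription factor of the ETS family, from mouse embryos with dTAG13, a small molecule that directs a tagged protein to the proteasome, and the control embryos received only its solvent, DMSO. Every control embryo was *Gabpa* dTAG/dTAG, so both alleles coded for GABPA fused to the degradation tag, and none of the 5 libraries came from wild-type embryos. The knock-in line was founded from chimeric mice backcrossed to C57BL/6J, and embryos were made by in vitro fertilization from females of 7 to 8 weeks and males of 8 to 12 weeks and grown in KSOM medium. DMSO was added 6 h after fertilization for the late two-cell embryos, which were collected at 30 h, and at the four-cell stage, 42 h after fertilization, for the morulae. The hour at which morulae were collected and the number of embryos in a library are not given in the sources used here. All late two-cell libraries differed from all morula libraries also in their sequencing depth, and stage and library batch cannot be told apart.

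The mouse oocyte stores messenger RNAs and proteins that carry the embryo through its first division. Most of this maternal RNA is degraded while the embryonic genome is switched on, in a wave that peaks at the late two-cell stage and includes genes and repeats transcribed almost nowhere else. In the morula the blastomeres flatten against each other, outer cells become polarized and start to form the trophectoderm epithelium, and inner cells give rise to the inner cell mass (ICM), from which the pluripotent epiblast and the primitive endoderm arise.

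Levels are given as TPM, which scales each gene by its length and is a share of the RNA in a library. Differences are log2 fold changes of morula minus late two-cell from edgeR, each with its standard error and a p-value adjusted over all genes tested, and genes were called where that p was under 0.05, the levels differed 2-fold or more, and the mean FPKM of either stage reached 1. Of the 17990 genes tested, 9747 (54.2%) were called, 4375 (24.3%) higher and 5372 (29.9%) lower in morulae, and the median difference over all tested genes was -0.37 (log2). The late two-cell libraries held 20449882 to 22710315 counts and the morula libraries 9457889 and 11032744 counts, and 13578 to 13849 and 12327 to 12534 genes, respectively, reached an FPKM of 1. Pearson's r of log CPM across genes was 0.965 to 0.967 among the late two-cell libraries, 0.972 between the morula libraries and 0.626 to 0.656 between stages, as a description of libraries whose genes are not independent. Among the genes called lower, 1653 (30.8%) had at most 3 counts in every morula library, whereas 228 (5.21%) of the genes called higher had at most 3 counts in every late two-cell library. For such genes the fold is given as a lower bound against 3 counts in each library. The study describes its late two-cell RNA-seq as 3 biological replicates and states that its RNA-seq experiments were repeated. The labels do not say that the libraries of a stage came from separate matings or cultures. The p-values therefore measure the spread between these libraries, which may be partly technical. Each library pools whole embryos, in which fewer cells of a type and less RNA per cell cannot be told apart.

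**Figure D1:**
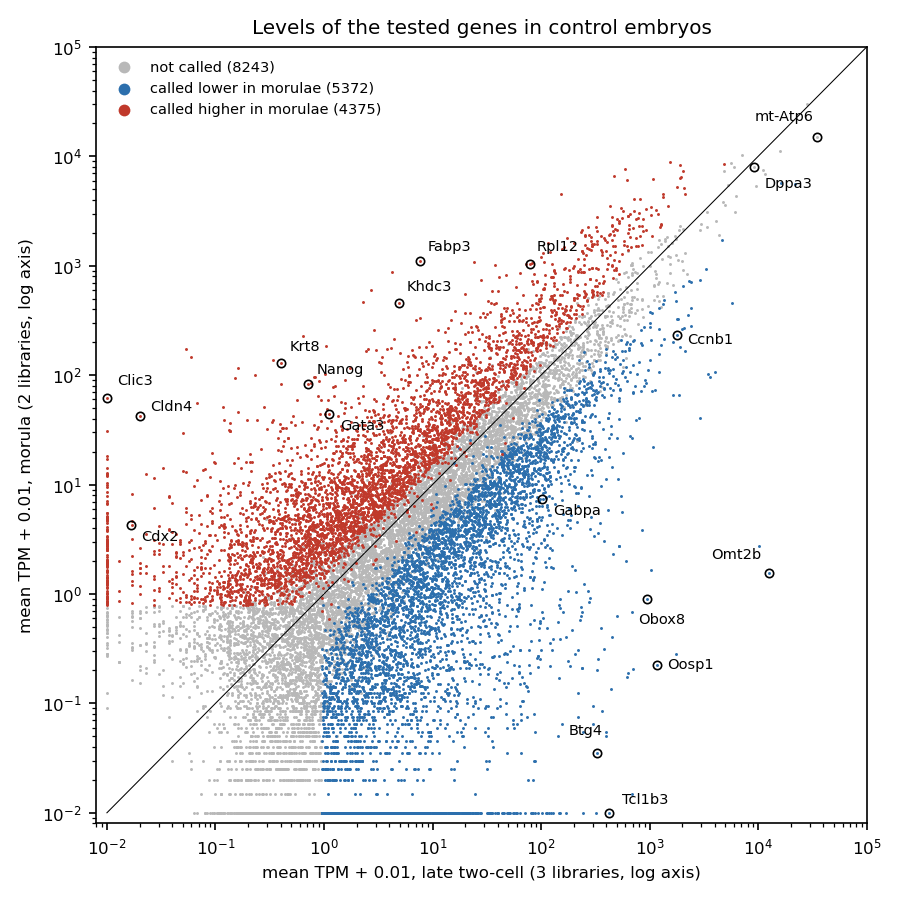
Mean TPM plus 0.01 of each of the 17990 tested genes in late two-cell libraries (n = 3, horizontal log axis) against morula libraries (n = 2, vertical log axis), with genes called higher in red, genes called lower in blue, genes not called in grey and the line of equal levels. *Omt2b*, *Obox8*, *Oosp1* and *Tcl1b3* lie near the lower right and *Cldn4*, *Clic3*, *Krt8* and *Nanog* near the upper left, while *Dppa3* and *mt-Atp6* lie close to the line.

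The stage labels were checked with marker genes. All 13 markers of the late two-cell embryo (*Zscan4d*, *Zfp352*, *Tdpoz1* to *Tdpoz5*, *Tcstv1*, *Tcstv3*, *Usp17la*, *Gdf9*, *Zp3* and *Nlrp5*) were higher in every late two-cell library than in any morula library, and 12 were called, all but *Tdpoz2*. Of 10 markers of the morula, 8 were called higher without overlap (*Cdx2*, *Gata3*, *Tfap2c*, *Krt8*, *Krt18*, *Cldn4*, *Pou5f1* and *Nanog*), *Atp1b1* overlapped and was not called, and *Fgf4* was called lower. Markers of cells that could be carried into an embryo sample were also read. Of 18 markers of cumulus and granulosa cells, which surround the oocyte, 14 were under 1 TPM in every library, among them the defining *Amh*, *Fshr*, *Inha* and *Ptx3* at 0 in all 5, and of the 6 tested 2 were called higher and 1 lower. Their summed level was 25.4 to 28.7 TPM in late two-cell and 138 to 142 TPM in morula libraries, where *Gja1*, a gap junction gene that both cell types can express, made up 129 and 122 TPM of it. Of 11 sperm markers, 8 were under 1 TPM everywhere, 2 of the 3 tested were called lower, and the sum was 34.7 to 43.6 TPM and 2.39 to 2.65 TPM. Of 10 blood and fibroblast markers, 6 were under 1 TPM everywhere, 1 of the 4 tested was called higher and 2 lower, and the sum was 41.5 to 50.5 TPM and 8.03 to 13.1 TPM, with *Ptprc* and *Col3a1* at 0 in all libraries. The part of such cells in the results was not tested.

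Transcripts made by the growing oocyte were nearly gone in morulae. Of 25 genes for the zona pellucida, oocyte growth factors and oocyte secreted proteins, 24 were tested, 22 were called lower (91.7%, against 29.9% of all genes) and none higher, with a median log2 fold change of -6.06, or -5.29 with genes under the count floor set at their bound. Their summed level dropped from 22871 to 27189 TPM in the late two-cell libraries to 22.7 to 28.2 TPM in the morula libraries. Most of that sum came from *Omt2a* and *Omt2b*, a pair of neighbouring oocyte maturation genes.

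*Omt2b* (chr9:78327589-78329620, GRCm38) was at 11528, 14239 and 12030 TPM in the late two-cell libraries and at 1.57 and 1.52 TPM in the morula libraries. It fell by 12.59 ± 0.27 on the log2 scale (SE, adjusted p = 3.6e-09), and the stages did not overlap. *Omt2b* shares 40.2% of its 31-base words with *Omt2a*, so that reads of the pair could be divided between them. *Oosp1*, an oocyte secreted protein, was at 1180, 1170 and 1175 TPM and then at 0 and 0.43 TPM, at least 2297-fold lower in morulae (adjusted p = 9.2e-09), and it shares no 31-base word with another gene. The zona glycoprotein *Zp3* went from 81.8, 89.5 and 82.7 TPM to 1.56 and 2.22 TPM (log2 fold change -5.09 ± 0.24, adjusted p = 6e-08). Its partners *Zp2* and *Zp1* fell by 6.05 ± 0.46 and 4.89 ± 0.54 on the log2 scale, and the oocyte growth factors *Gdf9* and *Bmp15* were at 24.1 to 30.1 and 41.5 to 56.6 TPM in late two-cell libraries and at 0.83 TPM or less in morulae.

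Chromatin proteins of the oocyte fell with them. *Npm2*, the nucleoplasmin that remodels sperm chromatin, was at 107, 97 and 105 TPM and then at 1.27 and 0.94 TPM (log2 fold change -6.08 ± 0.26, adjusted p = 3.4e-08). *H1foo*, the linker histone of the oocyte, was at 41.2, 25.5 and 25.9 TPM and then at 1.27 and 0.38 TPM (-5.50 ± 0.46, adjusted p = 2.4e-06). *Uchl1*, a deubiquitinating enzyme abundant in oocytes, was among the members with the smaller changes, with 137 to 170 TPM in late two-cell and 10.3 to 13.4 TPM in morula libraries.

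The subcortical maternal complex, a protein assembly under the plasma membrane of the egg, and the maternal NLRP genes gave 14 of 16 members called lower and 1 called higher (median log2 fold change -5.98, or -5.53 with floor genes at their bound). *Nlrp5*, which codes for the complex member MATER, was at 17.5, 15.1 and 18.2 TPM and then at 0.1 and 0.18 TPM (-6.55 ± 0.32, adjusted p = 6.2e-08). *Nlrp9c* was at 407, 335 and 449 TPM and then at 0.03 and 0.05 TPM, at least 1703-fold lower. *Zbed3* fell from 201 to 215 TPM to 1.37 and 1.92 TPM, and *Tle6* and *Padi6*, further members of the complex, fell by 3.25 ± 0.34 and 2.56 ± 0.26 on the log2 scale. *Ooep* was not called, with 18.2 to 19.7 TPM in late two-cell and 10.8 and 11.2 TPM in morula libraries (-0.43 ± 0.19, adjusted p = 0.058).

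The member that went the other way was *Khdc3*, which codes for the complex member FILIA (chr9:73101836-73104438). It was at 4.86, 4.17 and 5.59 TPM in the late two-cell libraries and at 391 and 519 TPM in the morula libraries, a log2 fold change of 7.25 ± 0.21 (adjusted p = 7.1e-09) with no overlap. The annotation holds an overlapping locus, *Gm20509*, with which *Khdc3* shares 36.7% of its 31-base words. The levels of *Nlrp5*, *Tle6*, *Padi6* and *Khdc3*, genes named for 1 complex, therefore did not move together between these stages.

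The machinery that stores, translates and destroys maternal mRNA held more genes called lower than higher. Of 26 members, 12 were called lower (46.2%, against 29.9% of all genes) and 2 higher (7.69%, against 24.3%), and the median log2 fold change was -0.96. *Btg4*, an adaptor that brings the CCR4-NOT deadenylase to maternal mRNAs, was at 305, 325 and 362 TPM and then at 0 and 0.05 TPM, at least 1501-fold lower (adjusted p = 7.1e-09). *Zar1l*, a translational regulator of the egg, was at least 48.2-fold lower. The deadenylase subunits *Cnot7*, *Cnot8* and *Cnot6l* fell by 2.51 ± 0.18, 2.27 ± 0.20 and 3.02 ± 0.20 on the log2 scale but kept 69 and 104, 30.8 and 46.4, and 2.8 and 3.87 TPM in morulae. *Zfp36l2* and *Zfp36l1*, which target AU-rich mRNAs for decay, were the 2 that rose, by a log2 fold change of 2.84 ± 0.22 and 3.62 ± 0.62, from 1.8 to 2.51 TPM to 11.5 and 11.8 TPM and from 0.05 to 0.46 TPM to 1.18 and 1.5 TPM, the second with 60% of its 31-base words shared with other genes.

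Genes of the transient two-cell programme were almost gone in morulae. Of 35 genes listed for this stage, 34 were tested, 31 were called lower and none higher (median log2 fold change -6.37, or -4.71 with floor genes at their bound), and their summed level was 1700 to 2517 TPM in late two-cell and 97.8 to 108 TPM in morula libraries. Most lie in clusters of near-identical copies, and the counts of a single copy are uncertain. The sequences upstream of 3 of them are shown because the letters TATAAA were more frequent in this list than among all genes. A TATA box, a core promoter element, holds these letters, but a match anywhere in the window was counted here. Near-identical copies, such as *Zscan4d* and *Zscan4f* below, have similar windows, so the windows of this list are not independent. The 6 letters TATAAA were found on either strand within 250 bases upstream of the RefSeq start in 43.8% of the 16 members with a promoter window, against 7.35% of the 11935 tested genes that have one and 13% of all 27025 windows. In the 120 bases shown, 5′ to 3′ on the gene's strand (RefSeq, GRCm38.p6) and ending at the base before the start, capitals mark TATAAA. The windows lie at chr7:11166149-11166268 (minus strand) for *Zscan4d*, chr7:11397795-11397914 (plus strand) for *Zscan4f* and chr7:103416576-103416695 (plus strand) for *Usp17lc*.
Zscan4d: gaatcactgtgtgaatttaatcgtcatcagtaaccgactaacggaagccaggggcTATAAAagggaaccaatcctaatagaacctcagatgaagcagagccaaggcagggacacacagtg
Zscan4f: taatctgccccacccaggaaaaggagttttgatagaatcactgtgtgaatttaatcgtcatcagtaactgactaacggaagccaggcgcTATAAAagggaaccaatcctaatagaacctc
Usp17lc: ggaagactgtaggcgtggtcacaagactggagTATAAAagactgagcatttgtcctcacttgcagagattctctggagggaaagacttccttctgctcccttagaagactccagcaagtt
The motif began 65, 31 and 88 bases upstream of the start, respectively, and the windows held 3, 3 and 1 CpG. A match is a description of the letters and not of a bound site.

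*Zscan4f*, of a zinc-finger family that marks the two-cell state, was at 84.9, 55.1 and 165 TPM in late two-cell libraries and at 0 in both morula libraries, at least 428-fold lower (adjusted p = 2e-06). It shares 91.7% of its 31-base words with other genes, and its highest level was in late two-cell replicate 3. The same library was highest for *Zscan4d*, at 19.6, 22.2 and 51.1 TPM and then 0 and 0.04 TPM, and for *Zscan4c*, at 7.99, 7.47 and 58.6 TPM and then 0 and 0.49 TPM. *Tdpoz4*, of a cluster of BTB/POZ-domain genes, was at 51.8, 72.5 and 53.3 TPM and then at 0 in both morula libraries, at least 194-fold lower, with 64.6% of its 31-base words shared. *Usp17lb*, a deubiquitinating enzyme, was at 274, 379 and 428 TPM and then at 0 and 0.96 TPM (log2 fold change -9.03 ± 0.58, adjusted p = 3.8e-07). *Arg2*, the mitochondrial arginase, fell from 118, 99.1 and 110 TPM to 2.02 and 3.31 TPM (-5.00 ± 0.25). *Sp110*, a nuclear body protein gene, was still at 77.7 and 69.8 TPM in morulae after 414 to 484 TPM in late two-cell libraries (-2.13 ± 0.17), and shares 55.5% of its 31-base words.

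All 7 tested members of the Obox homeobox family, which take part in the activation of the embryonic genome, were called lower (median log2 fold change -9.53, or -8.61 with floor genes at their bound), and their summed level was 2517 to 2773 TPM and then 19.1 to 28.8 TPM. *Obox8*, which shares no 31-base word with another gene, was at 877, 1001 and 949 TPM and then at 0.78 and 1 TPM (-9.67 ± 0.24, adjusted p = 4.6e-09). *Obox6* was at 1041, 1034 and 1120 TPM and then at 17.8 and 26.4 TPM (-5.23 ± 0.21, adjusted p = 2.4e-08), the smallest change in the family.

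Among 24 regulators linked to activation of the zygotic genome, 12 were called lower (50%, against 29.9% of all genes) and 4 higher (16.7%, against 24.3%), with a median log2 fold change of -1.06. *Gabpa* itself (chr16:84834925-84863779) was at 106, 116 and 87.3 TPM in late two-cell libraries and at 6.67 and 8.13 TPM in morula libraries, and fell by 2.50 ± 0.18 on the log2 scale (adjusted p = 8.3e-07). The fold by mean TPM was 13.9, larger than that by counts, and the effective length assigned to *Gabpa* was 2311 bases in late two-cell and 4503 bases in morula libraries. *Gabpa* overlaps the start of *Atp5j*, a subunit gene of ATP synthase on the opposite strand, with which it shares 5.51% of its 31-base words, and the library kit does not mark strand. *Atp5j* rose from 318, 337 and 323 TPM to 1948 and 2209 TPM (3.07 ± 0.13). The partner subunits *Gabpb1* and *Gabpb2* fell too, from 146 to 188 TPM to 18.9 and 29.7 TPM (-2.37 ± 0.21) and from 31.1 to 39.9 TPM to 2.87 and 2.85 TPM (-1.38 ± 0.19).

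*Klf17*, a Krüppel-like factor of the late two-cell stage, was at 86.2, 83.5 and 85.8 TPM and then at 2.17 and 0.55 TPM (-5.63 ± 0.42). *Nfya*, the DNA-binding subunit of NF-Y, and *Nrf1*, a regulator of nuclear genes for mitochondria, fell by 2.46 ± 0.24 and 1.34 ± 0.17. *Dppa4*, a chromatin factor of early embryos and pluripotent cells, fell by 1.40 ± 0.15 from a level of 684 to 733 TPM to 180 and 237 TPM. The 4 that rose were *Klf5*, *Tfap2c* and *Tead4*, which also act in the morula lineages, and *Hcfc1*, a transcriptional coregulator, whose call was lost without late two-cell replicate 1 (0.97) or 2 (0.94). *Klf5* went from 20, 16.1 and 13.5 TPM to 95.7 and 106 TPM (2.96 ± 0.18, adjusted p = 2.7e-07). *Nr5a2*, a nuclear receptor, was at 38.3 to 52.6 TPM and then at 17.4 and 17.3 TPM and was not called by counts (-0.21 ± 0.17, adjusted p = 0.30).

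**Figure D2:**
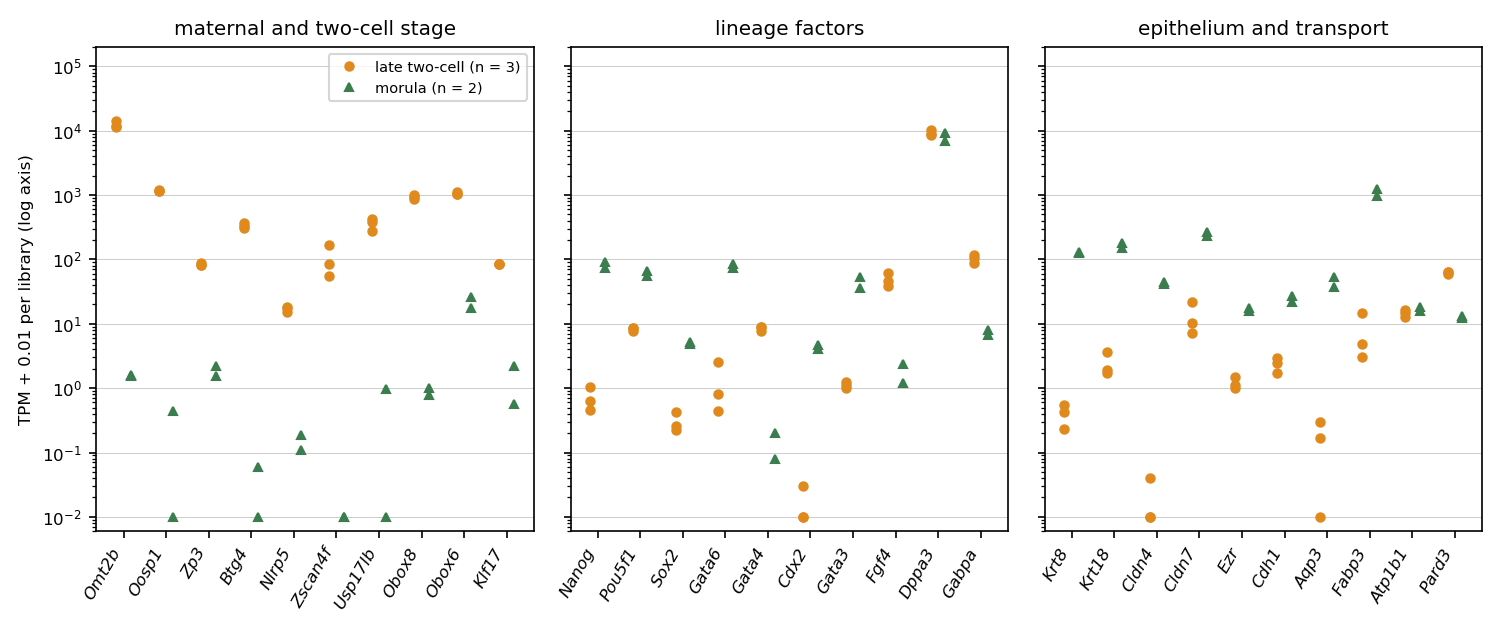
TPM plus 0.01 on a log axis in each late two-cell library (circles, n = 3) and each morula library (triangles, n = 2) for 30 genes in 3 panels. In the left panel every late two-cell point lies above every morula point, in the middle panel *Fgf4*, *Gata4* and *Gabpa* go down while *Nanog*, *Pou5f1*, *Sox2*, *Gata6*, *Cdx2* and *Gata3* go up, and in the right panel *Atp1b1* overlaps and *Pard3* goes down.

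Factors of naive pluripotency and of the inner cell mass mostly rose. Of 32 listed, 30 were tested, 19 were called higher (63.3%, against 24.3% of all genes) and 5 lower, with a median log2 fold change of 2.07. *Nanog* (chr6:122707489-122714633), a homeobox factor of the naive epiblast, was at 0.45, 1.05 and 0.62 TPM and then at 91.9 and 72.5 TPM (7.23 ± 0.31, adjusted p = 3.1e-08). *Pou5f1*, which codes for OCT4, was present at both stages, at 8.53, 7.7 and 8.65 TPM and then at 55.6 and 65 TPM (3.45 ± 0.19, adjusted p = 1.5e-07). *Sox2* was at 0.21, 0.41 and 0.25 TPM and then at 5.2 and 4.82 TPM (4.46 ± 0.41, adjusted p = 4.9e-06). In none of these 3 genes did the stages overlap, and in morulae *Sox2* was the lowest of them.

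The naive factor *Tfcp2l1* rose from 8.39, 10.1 and 14.3 TPM to 138 and 146 TPM (5.81 ± 0.23), and *Zfp42* (REX1) and *Esrrb* rose by 2.81 ± 0.17 and 2.07 ± 0.34. *Dppa5a*, an RNA-binding protein of pluripotent cells, went from 1753 to 2013 TPM to 8328 and 8241 TPM (2.50 ± 0.13), and it shares 57.2% of its 31-base words with other genes. The 5 that fell were *Klf17*, *Spic*, *Fgf4*, *Prdm14* and *Dppa4*. *Fgf4*, the growth factor by which epiblast precursors act on their neighbours, was at 46.9, 61.5 and 38.1 TPM and then at 2.37 and 1.19 TPM (-2.74 ± 0.36, adjusted p = 6.2e-05). *Spic*, an ETS-domain factor, was at 1241, 1256 and 1166 TPM and then at 65.8 and 150 TPM (-3.20 ± 0.29). *Dppa3* (STELLA), a maternal protein that protects DNA methylation, was at 8859, 8459 and 10184 TPM and then at 6845 and 9066 TPM, and the stages overlapped (0.17 ± 0.14, adjusted p = 0.30).

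Trophectoderm genes rose without an exception among those called: of 22, 14 were called higher and none lower, with a median log2 fold change of 2.84. *Cdx2* (chr5:147300805-147307270), the homeobox factor of this lineage, was at 0.02, 0 and 0 TPM and then at 4.01 and 4.59 TPM, at least 87.6-fold higher (adjusted p = 7.9e-07). *Gata3* was at 1.11, 1 and 1.23 TPM and then at 53.2 and 35.5 TPM (5.67 ± 0.23, adjusted p = 2.6e-08). The epithelial keratins *Krt8* and *Krt18* went from 0.54, 0.41 and 0.22 TPM to 128 and 131 TPM (8.74 ± 0.28) and from 1.73, 1.89 and 3.61 TPM to 153 and 181 TPM (6.47 ± 0.29). Their levels in morulae were therefore more than those of *Cdx2* and *Gata3*. *Elf3*, an epithelial ETS factor, and *Dab2*, an endocytic adaptor, rose by 4.33 ± 0.20 and 4.73 ± 0.21. *Eomes*, which acts later in the trophoblast, was at 0.38 to 0.71 TPM and then at 2.68 and 2.62 TPM (2.59 ± 0.36). *Grhl2*, a factor of epithelia, was at 13.5 to 16 TPM and then at 6.73 and 6.49 TPM and was not called (-0.79 ± 0.21, adjusted p = 0.0069).

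Of 24 primitive endoderm genes, 19 were tested, 15 were called higher and 1 lower (median log2 fold change 3.11). *Gata6*, the early factor of this lineage, was at 0.8, 0.43 and 2.56 TPM and then at 85.4 and 73.8 TPM (6.54 ± 0.38, adjusted p = 2e-07). *Gata4*, which acts after *Gata6*, went the other way, from 8.77, 8.77 and 7.62 TPM to 0.07 and 0.19 TPM, at least 57.8-fold lower (adjusted p = 6.5e-07). *Sox17*, *Sox7*, *Foxa2*, *Hnf4a* and *Ttr*, genes of the later lineage, were at 0.52 TPM or less in every library and were not tested. The receptor *Pdgfra* rose from 0.47 to 0.54 TPM to 1.23 and 2.08 TPM (2.47 ± 0.39). Among genes of the basement membrane, *Nid1* went from 1.07 to 2.02 TPM to 18.7 and 18.1 TPM (3.78 ± 0.21), *Col4a1* from 0 to 0.1 TPM to 5.59 and 6.63 TPM (6.98 ± 0.60), and *Col4a2* was at least 136-fold higher. Of the laminins in the list, *Lamc1* and *Lamb1* were higher by 3.11 ± 0.49 and 1.88 ± 0.23, and *Lama1* was at 0.33 TPM or less in every library and was not called. The endocytic receptor *Lrp2*, listed for both extraembryonic lineages, went from 0.2, 0.68 and 0.45 TPM to 16.3 and 17.1 TPM (7.07 ± 0.27).

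The study also sorted genes by lineage, from public data of later embryos and not from these 5 libraries. Of its ICM genes, 743 were tested, 244 were called higher (32.8%) and 213 lower (28.7%), with a median log2 fold change of 0.09, against 24.3% higher and 29.9% lower over all genes. Of its trophectoderm genes, 972 were tested, 453 (46.6%) were called higher and 197 (20.3%) lower, with a median of 1.05. Its primitive endoderm genes held 107 higher and 36 lower of 236 tested (median 0.92), and its epiblast genes 70 higher and 47 lower of 178 (median 0.12). Genes already expressed in embryos before that stage were classed as early. Among the epiblast genes, 54 of the 117 classed as early rose and 23 fell (median 0.72), whereas 16 of the 61 classed as late rose and 24 fell (median -1.17). Among the primitive endoderm genes the early ones gave 85 and 14 of 151 (median 1.44) and the late ones 22 and 22 of 85 (median 0.37). For the ICM and trophectoderm genes the late classes had the higher medians, 0.51 against 0.03 and 1.38 against 0.96.

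The Hippo pathway relays cell contact and polarity to the TEAD factors that turn on trophectoderm genes. Of 20 members, 19 were tested, 11 were called higher (57.9%, against 24.3% of all genes) and 2 lower (median log2 fold change 1.47), while their summed level was 236 to 253 TPM and then 136 to 149 TPM. The regulators *Amot* and *Amotl2*, which hold YAP at cell junctions, rose from 0.34 to 0.76 TPM to 9.91 and 8.1 TPM (4.42 ± 0.28) and from 0.08 to 0.38 TPM to 7.59 and 6.68 TPM (5.51 ± 0.48). The kinase *Lats2* rose by 4.49 ± 0.44 (with 41.8% of its 31-base words shared), and its cofactors *Mob1a* and *Mob1b* were the 2 that fell, by 1.75 ± 0.19 and 1.17 ± 0.17. The DNA-binding partners *Tead1* and *Tead4* rose by 2.95 ± 0.26 and 1.47 ± 0.18. *Yap1*, the coactivator, was at 14.9 to 19.5 TPM and then at 9.1 and 6.88 TPM and was not called (-0.81 ± 0.19, adjusted p = 0.0031). *Ccn2*, a target gene of YAP, was at 0.04, 0.16 and 0.09 TPM and then at 7.04 and 7.03 TPM (6.43 ± 0.45, adjusted p = 7.1e-07).

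Of 35 genes for adhesion, polarity and junctions, 24 were called higher and 4 lower (median log2 fold change 1.90). The tight junction gene *Cldn4* (chr5:134945119-134946934) was at 0, 0 and 0.03 TPM and then at 41.7 and 43.9 TPM, at least 688-fold higher (adjusted p = 1.2e-08), and *Cldn7* went from 10.4, 7.1 and 21.7 TPM to 231 and 270 TPM (4.89 ± 0.35). The connexin *Gja1*, which forms gap junctions, was at 9.78, 9.26 and 7.97 TPM and then at 129 and 122 TPM (4.17 ± 0.17). Of the desmosomal genes in the list, *Dsg2* was at 0 in all 3 late two-cell libraries and at 2.47 and 2.62 TPM in morulae, at least 128-fold higher, *Dsp*, *Pkp2* and *Jup* rose by 5.01 ± 0.42, 5.73 ± 0.34 and 1.93 ± 0.35, *Dsc2* was not called (2.09 ± 0.85), and *Pkp3* was called lower.

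*Cdh1*, the E-cadherin of compaction, rose from 2.47, 2.95 and 1.74 TPM to 27.5 and 22 TPM (3.72 ± 0.25, adjusted p = 4.5e-07). *Ezr*, the apical membrane linker ezrin, rose from 1 to 1.46 TPM to 15.7 and 17.7 TPM (4.15 ± 0.23). The 4 that fell were *Gjc1*, *Pkp3* (whose call was lost without late two-cell replicate 2, at -1.15, or morula replicate 2, at -1.09), *Rdx*, a relative of ezrin, and the polarity gene *Pard3*. *Rdx* was at 83.8, 66.2 and 72.3 TPM and then at 16.4 and 19.7 TPM (-1.33 ± 0.16), and *Pard3* at 59.9, 64.6 and 64.4 TPM and then at 13.4 and 12.4 TPM (-1.54 ± 0.17).

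Of 26 transporter genes tested, 11 were called higher (42.3%, against 24.3% of all genes) and 5 lower (19.2%, against 29.9%), with a median log2 fold change of 0.50. *Fabp3*, a carrier of fatty acids, was at 3.06, 4.77 and 14.9 TPM and then at 982 and 1226 TPM (7.56 ± 0.52, adjusted p = 6.2e-07), and it shares 50.1% of its 31-base words with other genes. The water channel *Aqp3* was at 0.16, 0 and 0.29 TPM and then at 54 and 37.4 TPM (8.53 ± 0.49), while *Aqp11* fell from 23.8 to 31.4 TPM to 0.94 and 0.29 TPM (-5.50 ± 0.34). The glucose transporters *Slc2a3* and *Slc2a1* rose by 3.63 ± 0.19 and 3.23 ± 0.39. *Atp1b3*, a subunit of the sodium pump, which later drives fluid into the blastocoel, fell from 186 to 226 TPM to 32.3 and 39.2 TPM (-2.19 ± 0.16). *Atp1b1*, another subunit of the pump, was at 16.5, 12.6 and 14.6 TPM and then at 15.9 and 18 TPM, with overlap and no call (0.58 ± 0.18, adjusted p = 0.015). *Tfrc*, the transferrin receptor, fell by 2.24 ± 0.16.

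Of the 19 glycolysis genes, 7 were called higher (36.8%, against 24.3% of all genes) and 4 lower (21.1%, against 29.9%), with a median log2 fold change of -0.15. *Hk2*, a hexokinase, rose from 1, 0.51 and 1.09 TPM to 36.5 and 30.6 TPM (5.80 ± 0.28), and the aldolase *Aldoa* from 10.5 to 19.5 TPM to 162 and 187 TPM (3.80 ± 0.23). *Ldhb*, the lactate dehydrogenase subunit that favours use of lactate, fell from 208, 213 and 218 TPM to 4.58 and 4.45 TPM (-5.92 ± 0.21, adjusted p = 1.4e-08). *Ldha*, the other subunit, was at 6.36 to 10.9 TPM and then at 6.22 and 7.84 TPM and was not called. Of 24 genes of pyruvate entry and the citric acid cycle, 15 were called higher and 1 lower (median 1.5). *Idh1*, a cytosolic isocitrate dehydrogenase, rose by 3.70 ± 0.22, and *Pcx*, which makes oxaloacetate from pyruvate, was the 1 that fell, from 17 to 26.1 TPM to 0.73 and 0.24 TPM (-2.55 ± 0.48).

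**Figure D3:**
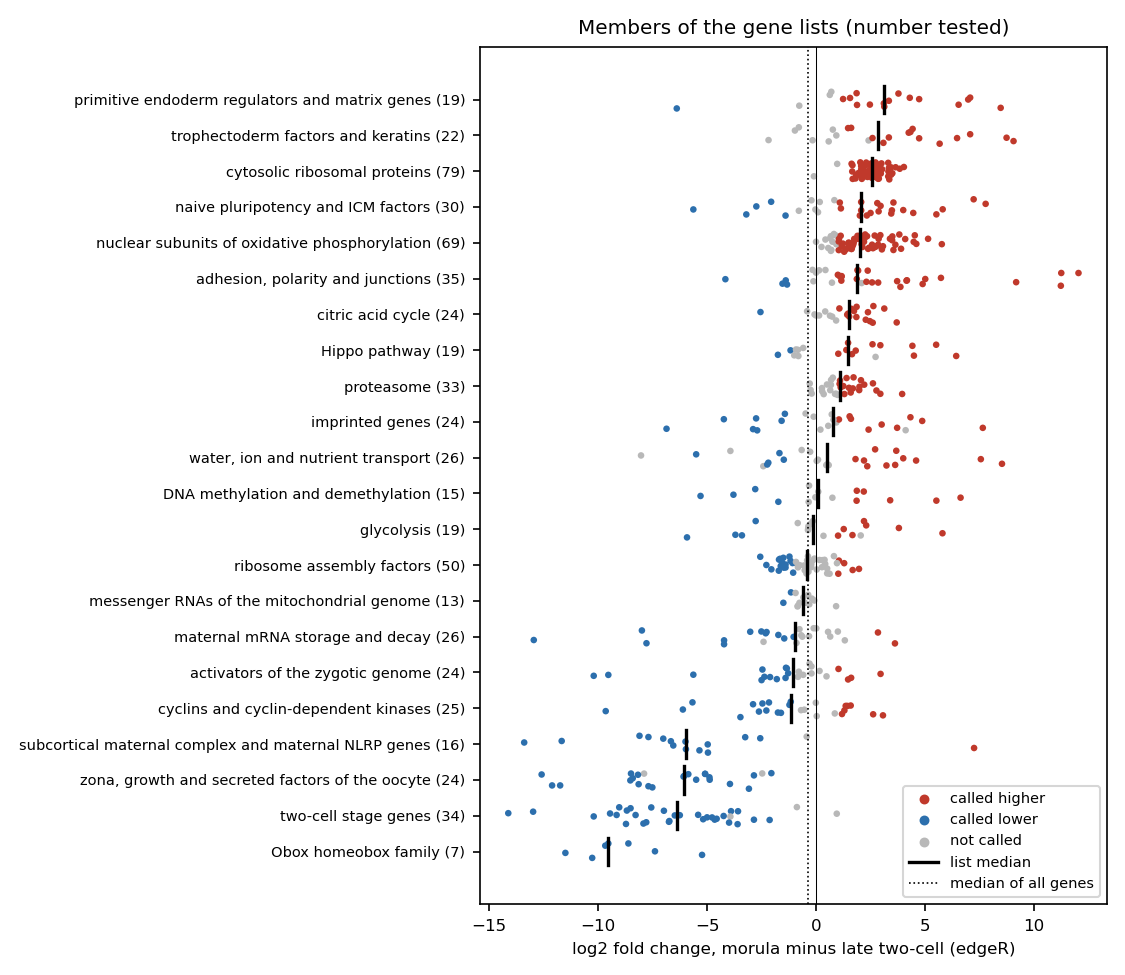
Log2 fold change, morula minus late two-cell from edgeR, of each tested member of 22 gene lists (1 point per gene, red called higher, blue called lower, grey not called), with the list median as a black bar and the median of all tested genes, -0.37, as a dotted line. The oocyte, two-cell and Obox lists lie far to the left, with medians from -9.53 to -6.06, and the ribosomal protein and oxidative phosphorylation lists lie almost whole to the right.

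The genes of the cytosolic ribosome rose nearly as a block. Of 79 ribosomal protein genes, 77 were called higher and none lower (median log2 fold change 2.56), and their summed level was 48518 to 52714 TPM in late two-cell and 173483 to 205188 TPM in morula libraries. As shares of the library this was 4.85%, 4.99% and 5.27% and then 20.5% and 17.3%. *Rpl12*, of the stalk base of the large subunit, had the largest change, from 78.2, 80.8 and 78.7 TPM to 1180 and 898 TPM (4.03 ± 0.16, adjusted p = 2.6e-08), and *Rps29*, of the small subunit, went from 1479, 1543 and 1570 TPM to 9950 and 7866 TPM (2.97 ± 0.15). The 2 not called were *Rpl41*, at 6820 to 7457 TPM and then 10952 and 9470 TPM (0.97 ± 0.13, and called without morula replicate 2 at 1.18), and *Rplp0*, at 1605 to 1866 TPM and then 1252 and 1263 TPM (-0.10 ± 0.13), and the sign of the *Rplp0* difference turned with upper-quartile scaling. Ribosomal proteins have many processed pseudogenes, and *Rpl12* shares 19.8% of its 31-base words with another gene.

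Factors that assemble ribosomes did not rise with the proteins they assemble. Of 50, 5 were called higher (10%, against 24.3% of all genes) and 17 lower (34%, near the 29.9% of all genes). The median log2 fold change of -0.42 was close to that of all genes. *Npm1* and *Fbl*, abundant nucleolar proteins, rose from 1160 to 1266 TPM to 3088 and 2849 TPM (1.68 ± 0.12) and from 45.1 to 48.7 TPM to 162 and 121 TPM (1.97 ± 0.17). *Utp15*, of the small-subunit processome, fell from 60, 60.2 and 51.5 TPM to 6.95 and 8.29 TPM (-2.56 ± 0.18), and *Nmd3*, the export adaptor of the large subunit, from 553 to 648 TPM to 102 and 136 TPM (-2.05 ± 0.17).

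The nuclear genes of oxidative phosphorylation had a higher summed TPM in morulae and the mRNAs of the mitochondrial genome a lower one. Of 69 nuclear subunits, 57 were called higher and none lower (median log2 fold change 2.03), and their summed level was 17852 to 18186 TPM and then 49786 to 51647 TPM. *Ndufa3* and *Ndufs6*, subunits of complex I, were at 22.8, 18.1 and 30.7 TPM and then at 1095 and 1070 TPM (5.77 ± 0.19, adjusted p = 1.3e-08), and at 27.3, 25.1 and 31.1 TPM and then at 763 and 724 TPM (5.14 ± 0.17). *Ndufa2*, of the same complex, was at 528 to 622 TPM and then at 489 and 405 TPM and was not called (0.00 ± 0.16, adjusted p = 0.99). The 13 mRNAs of the mitochondrial genome summed to 110033 to 129627 TPM and then to 54939 to 56321 TPM, with 2 called lower (15.4%, against 29.9% of all genes), none higher and a median log2 fold change of -0.58, against -0.37 for all genes. *mt-Atp6*, the highest messenger RNA of the late two-cell libraries, was at 37473, 35675 and 31908 TPM and then at 15102 and 14702 TPM and was not called (-0.85 ± 0.13, adjusted p = 0.00018), and it shares 99.5% of its 31-base words with other annotated genes. The 2 called were *mt-Atp8* (-1.5 ± 0.19) and *mt-Cytb* (-1.15 ± 0.16). The call of *mt-Cytb* was lost without morula replicate 1, with a log2 fold change of -0.83, and *mt-Nd6* (0.92 ± 0.16) reached a call without late two-cell replicate 1 (1.00) or morula replicate 2 (1.19). The mitochondrial transcripts *mt-Ts1* and *mt-Tq* were also among the 5 highest by TPM at both stages, but RSEM gave them an effective length of 2 bases, which sets their TPM.

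**Figure D4:**
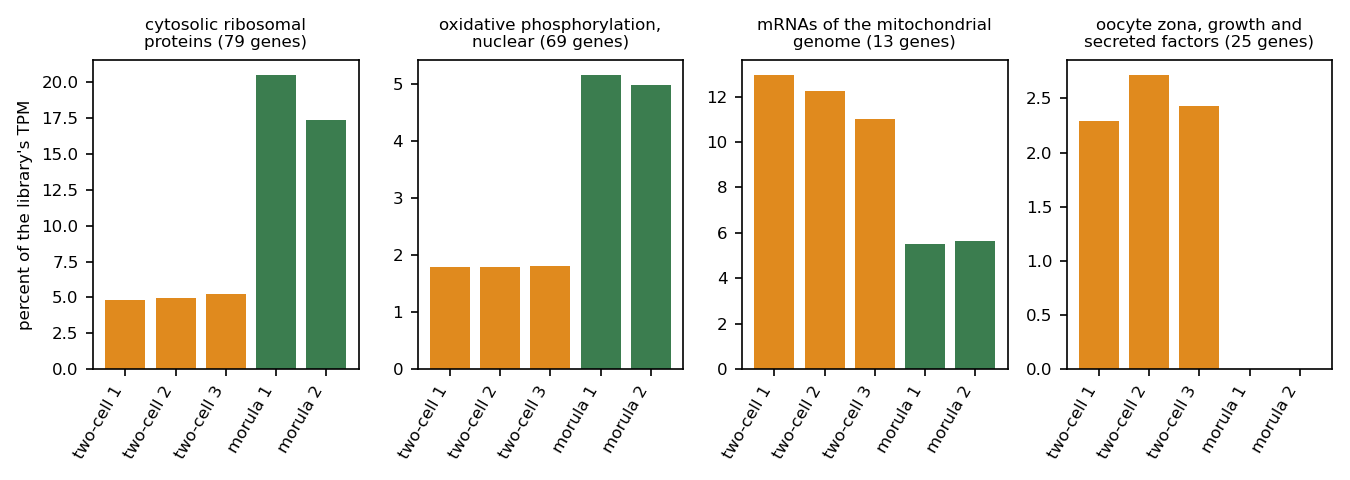
Summed TPM of 4 gene lists as a percent of all TPM in each library (bars, 1 per library, orange for late two-cell and green for morula, vertical axes from 0 and different between panels). Ribosomal proteins took 4.85 to 5.27% in late two-cell and 17.3 and 20.5% in morula libraries, mRNAs of the mitochondrial genome 11 to 13% and then 5.49 and 5.63%, and the oocyte list 2.29 to 2.72% and then 0.00282 and 0.00227%.

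The proteasome gave 18 of 33 tested genes called higher and none lower (median log2 fold change 1.10). *Psma7*, of its core ring, was at 109, 84.3 and 106 TPM and then at 1074 and 1317 TPM (3.95 ± 0.16, adjusted p = 2.6e-08), and the catalytic subunit *Psmb6* rose from 236 to 270 TPM to 1045 and 1270 TPM (2.61 ± 0.15).

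Promoters of these housekeeping lists are shown because ETS factors such as GABPA bind the letters CCGGAAG. This core was found on either strand in the 250 bases upstream of the start in 31% of the 58 ribosomal protein genes with a window, in 28.6% of 28 proteasome genes and in 17.5% of 57 nuclear oxidative phosphorylation genes, against 12.8% of all tested genes and 7.05% of all windows. It was in 13.5% of the genes called higher and 12.1% of those called lower, and in none of the windows of the oocyte, two-cell or trophectoderm lists (14, 16 and 17 windows). The adhesion list had it in 8% of 25 windows. CCGGAAG holds a CpG, and the median window had 4, 1.5 and 13 CpG in the oocyte, two-cell and trophectoderm lists, against 14 over all tested genes. Capitals mark CCGGAAG in the 120 bases upstream of the start, 5′ to 3′ on the gene's strand (RefSeq, GRCm38.p6), at chr11:114668460-114668579 (plus strand) for *Rpl38*, chr17:27635245-27635364 (minus strand) for *Rps10* and chr10:80406822-80406941 (minus strand) for *Uqcr11*, a subunit of complex III.
Rpl38: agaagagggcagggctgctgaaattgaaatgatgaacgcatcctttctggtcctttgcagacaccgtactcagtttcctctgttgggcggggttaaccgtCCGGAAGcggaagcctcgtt
Rps10: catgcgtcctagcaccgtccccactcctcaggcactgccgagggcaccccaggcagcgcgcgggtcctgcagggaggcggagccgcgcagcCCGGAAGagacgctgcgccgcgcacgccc
Uqcr11: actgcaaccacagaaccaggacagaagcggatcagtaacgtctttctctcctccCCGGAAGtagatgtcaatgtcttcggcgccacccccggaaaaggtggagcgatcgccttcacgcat
The motif began 20, 29 and 66 bases upstream of the start. *Rpl38* rose from 1108, 1059 and 1092 TPM to 7119 and 5253 TPM (2.96 ± 0.17), *Rps10* from 272, 293 and 313 TPM to 1697 and 1349 TPM (2.85 ± 0.16) and *Uqcr11* from 225, 137 and 231 TPM to 1017 and 896 TPM (2.69 ± 0.21).

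Of 25 cell cycle genes tested, 13 were called lower (52%, against 29.9% of all genes) and 7 higher (28%, against 24.3%), with a median log2 fold change of -1.16. *Ccnb1*, the main mitotic cyclin, was at 1646, 1857 and 1837 TPM and then at 182 and 281 TPM (-2.46 ± 0.21, adjusted p = 2.3e-06), its kinase *Cdk1* fell by 1.75 ± 0.15, and *Ccne1*, the cyclin of entry into S phase, by 2.28 ± 0.19. *Wee2*, the oocyte form of the kinase that inhibits CDK1, was at 52.6, 58.3 and 84.4 TPM and then at 0.12 and 0 TPM (-9.65 ± 0.52). *Cdc25c*, a phosphatase that activates CDK1, fell by 3.47 ± 0.19. In contrast, the G1 genes *Cdk4* and *Ccnd3* rose from 17.7, 12.5 and 23.2 TPM to 132 and 188 TPM (3.07 ± 0.22) and from 6.04 to 7.87 TPM to 28.8 and 37.5 TPM (2.62 ± 0.21), and the inhibitor *Cdkn1a* rose from 89 to 140 TPM to 244 and 213 TPM. *Ccnd2*, a relative of *Ccnd3*, was called lower (-2.16 ± 0.49, adjusted p = 0.0026).

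Of 15 genes that write, read or remove DNA methylation, 6 were called higher (40%, against 24.3% of all genes) and 4 lower (26.7%, against 29.9%), with a median log2 fold change of 0.10. *Tet3*, the oxidase of the zygote, fell from 4.15 to 5.04 TPM to 0.4 and 0.25 TPM (-2.79 ± 0.30), while *Tet2* rose from 2.83, 3.85 and 2.95 TPM to 38.6 and 34.6 TPM (5.52 ± 0.27). *Tdg*, the glycosylase that removes oxidized bases, rose from 0.09 to 0.51 TPM to 12.1 and 11.4 TPM (6.63 ± 0.33), and shares 48% of its 31-base words. *Zfp57*, which guards methylation at imprinted loci, fell from 72.3, 70.1 and 72.6 TPM to 3.44 and 4.71 TPM (-3.79 ± 0.25). The de novo methyltransferase *Dnmt3b* rose by 3.40 ± 0.31, and *Dnmt3a* was at 28.9 to 30.4 TPM and then at 9.54 and 11.2 TPM and was not called by counts (-0.34 ± 0.19, adjusted p = 0.12).

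The balance between related genes also changed. In 20 pairs of relatives, the first gene's percent of the pair's summed TPM was computed in each library, and these shares did not overlap between stages in 18 pairs, in a comparison where 54.2% of all genes were called. The partner with most of the TPM changed in 9 pairs. The first gene held the larger share in late two-cell embryos and its relative in morulae for *Klf17* and *Klf4* (86 to 86.8% *Klf17*, then 15.1 and 5.24%), *Btg4* and *Btg1* (85.4 to 88.9%, then 0 and 0.263%), *H1foo* and *H1f0* (66.3 to 76.4%, then 11.9 and 2.26%) and *Ldhb* and *Ldha* (95.3 to 97%, then 42.4 and 36.2%). The hexokinase pair went from 54.2 to 68.1% *Hk1* to 7.48 and 8.5%, although both genes rose. In *Dnmt3a* and *Dnmt3b* the share of *Dnmt3a* went from 94.8 to 97.5% to 49.6 and 52.8%. The first gene fell and the second rose, both called, in 1 pair, *Npm2* and *Npm1*. The glucose transporters *Slc2a1* and *Slc2a3* overlapped in share, with 20.4 to 26.9% and then 28 and 16.6% *Slc2a1*.

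**Figure D5:**
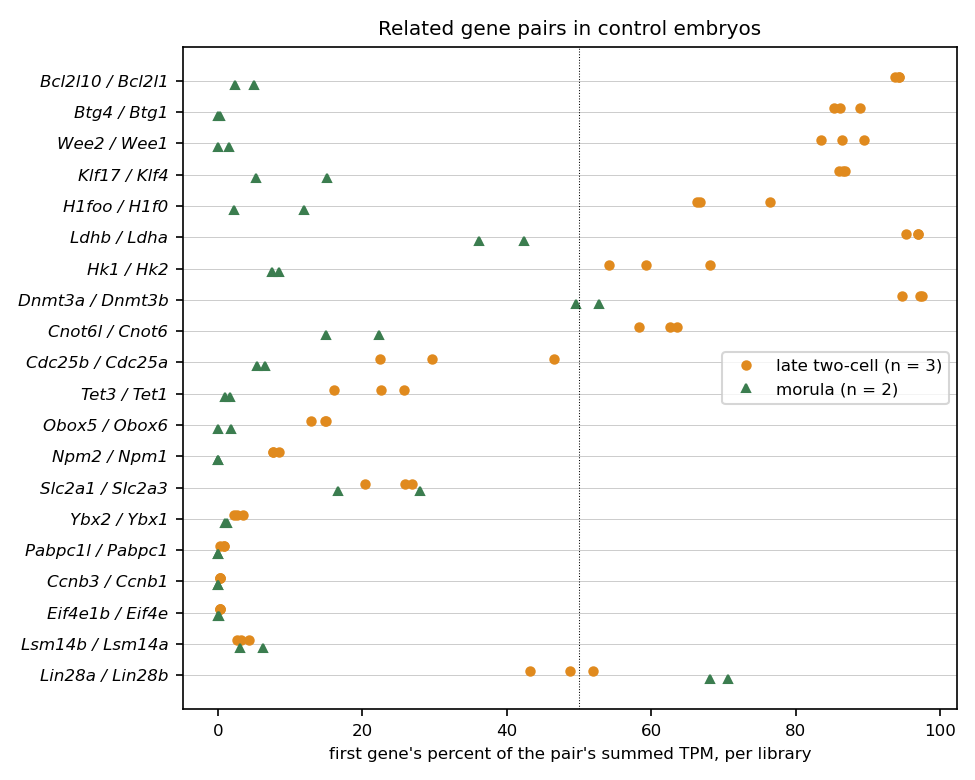
Share of the first gene in the summed TPM of each of 20 pairs of related genes, in percent, in each late two-cell library (circles, n = 3) and each morula library (triangles, n = 2), with a dotted line at equal shares. *Bcl2l10*, *Btg4*, *Wee2* and *Klf17* hold 83.5% or more of their pair in late two-cell libraries and 15.1% or less in morula libraries.

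A further set of genes was named by the size of the change alone, among 3212 protein-coding genes called that had a mean FPKM of 20 or more in either stage and no overlap between stages (1511 higher, 1701 lower). The 12 that fell furthest were *Tcl1b3*, *Tcl1b4*, *Gm6176*, *Zscan4f*, *Fbxw14*, *Pramel3*, *Tmprss11a*, *Gm15023*, *Nlrp9a*, *Gm10436*, *D6Ertd527e* and *Gm13103*. *Tcl1b3*, of an oocyte cluster related to the kinase coactivator TCL1, was at 425, 434 and 423 TPM and then at 0 in both morula libraries, at least 1297-fold lower, and its neighbour *Tcl1b4* at 229, 269 and 227 TPM and then at 0, at least 845-fold lower. *Tmprss11a*, a transmembrane serine protease, was at 31.2 to 35.5 TPM and then at 0, at least 286-fold lower, and it shares 1.2% of its 31-base words with another gene. *Gm6176* and *Gm15023* share 100% of theirs, so their counts cannot be assigned to these loci with certainty.

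Among those that rose furthest were *Serpinb9b*, *Clic3*, *Apoa1*, *Cldn4*, *1500009L16Rik*, *Zfp969*, *Smim22*, *Rhox5*, *Smpdl3a*, *Perp* and *Phlda3*. *Serpinb9b*, a protease inhibitor, and *Clic3*, of a chloride channel family, were at 0 in all 3 late two-cell libraries and at 13.5 and 21 TPM, and 53.2 and 71.5 TPM, in morulae, at least 515-fold and 387-fold higher. *Apoa1*, an apolipoprotein, was at 0 and then at 32.5 and 29.1 TPM, at least 262-fold higher. *1500009L16Rik* was at 0, 0.13 and 0 TPM and then at 154 and 192 TPM, at least 1186-fold higher. *Rhox5*, an X-linked homeobox gene, was at 0 to 0.1 TPM and then at 56.9 and 53.9 TPM, at least 324-fold higher. *Perp* and *Phlda3*, known targets of p53, were at 0 to 0.25 TPM and then at 93.7 and 92.9 TPM (9.71 ± 0.43), and at 0 to 0.12 TPM and then at 28.2 and 31.4 TPM, at least 230-fold higher. *Zfp969* shares 100% of its 31-base words with other genes.

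Called genes also differed by kind of transcript and by length. Long intergenic RNAs were called lower in 435 of 946 (46%) and higher in 137 (14.5%), with a median log2 fold change of -2.97, and unprocessed pseudogenes were called lower in 100 of 172 (58.1%) with a median of -4.79. For protein-coding genes these values were 4071 lower and 3610 higher of 14129, and a median of -0.23. The 1414 protein-coding genes of shortest effective length, up to 757 bases, held 622 called higher and 347 lower (median 0.74), and the 1413 of longest effective length, from 4250 bases, held 224 higher and 387 lower (median -0.64). Of the 79 ribosomal protein and 69 oxidative phosphorylation genes, 67 and 54 lie among those shortest genes. Without these lists and the proteasome the shortest genes still held 505 higher (39.2%) and 347 lower of 1287 (median 0.45). The part of length in the results was not tested.

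The effective length that RSEM assigns to a gene depends on which of its transcripts the reads fit, and it can part a difference in TPM from one in counts. Among 5627 genes with a mean of at least 5 TPM at both stages, it was at least 2-fold longer in morulae for 75 and at least 2-fold shorter for 57. *Pcx*, *Gabpb2*, *Fgf4* and *Tet2* were under 5 TPM at a stage and are not among these genes. The changes given above for them by TPM also differed in size from those by counts. *Mfsd11*, a membrane transporter gene chosen after its values were seen, was called higher (1.12 ± 0.20) at 39.8 to 46.2 TPM and then 16.5 and 21.7 TPM, with effective lengths of 427 and 1713 bases and -0.89 by limma. Its direction therefore depended on the measure.

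The change between stages was read a second time in 5 libraries that the comparison had not used, from embryos of the same genotype treated with dTAG13 at the same stages (3 and 2 libraries), in which the tagged GABPA was targeted for degradation. Stage and library batch cannot be told apart in these libraries either, so this reading does not separate them. There 18450 genes were tested and 10045 (54.4%) were called, 4507 higher (24.4%) and 5538 lower (30%). Of the 4375 genes called higher in DMSO libraries, 3696 were called higher there too, which is 84.5% of the first list and 82% of the second, and 1 was called lower. Of the 5372 called lower, 4640 were called lower there, 86.4% and 83.8% of the 2 lists, and 7 were called higher. All 77 ribosomal protein genes, all 7 Obox genes and 56 of the 57 oxidative phosphorylation genes called in DMSO libraries were called in the same direction, as were 12 of the 16 primitive endoderm genes. Of the ribosome assembly factors, 5 called higher and 17 called lower with DMSO, only 12 were called in the same direction, and of the 2 mitochondrial mRNAs 1. The 8 genes with opposite calls were *Rgl2*, higher with DMSO (1.24) and lower with dTAG13 (-1.69), and *Pih1d2*, *Ndufaf1*, *Pik3c3*, *Rbm45*, *Cox7b2*, *Zfp59* and *Gm49383*, lower with DMSO (-2.57 to -1.05) and higher with dTAG13 (1.13 to 2.99). They were named because their number is small. In a fit of all 10 libraries, chosen after seeing the data, the stage difference itself depended on the treatment in 516 of 19860 genes tested (2.6%). Among them were 47 genes of the lists, the pairs and the naming rule. Of these, *Obox8* had a log2 difference of -9.67 with DMSO and -5.21 with dTAG13 (adjusted p of the difference 1.5e-06, edgeR). The 47 also held genes of the proteasome and oxidative phosphorylation lists, so calls in the same direction could differ in size. For *Psmb4*, of the proteasome, the log2 difference was 1.51 with DMSO and 4.89 with dTAG13 (adjusted p of the difference 3.2e-05, edgeR).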

How the data were processed

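Polyadenylated RNA of the embryos had been made into cDNA with a SMART-Seq kit and into libraries with a Nextera XT kit, which does not keep the strand. Per the submitters' processing notes reads were trimmed with Trimmomatic 0.39, and the authors aligned them with STAR and quantified them with RSEM. The deposited tables gave, per gene and library, expected counts, which divide reads that fit several genes, as well as TPM and FPKM values as the authors computed them. The annotation release is not given in the sources used here, and gene names were taken from GENCODE M21 on GRCm38 (55144 of 55385 identifiers matched).

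Expected counts were rounded to whole numbers, genes reaching 10 counts in 2 or more libraries were kept, counts were scaled by TMM and stages were compared with edgeR 4.0.16 quasi-likelihood tests (R 4.3.3) with Benjamini-Hochberg adjustment. A call needed an adjusted p under 0.05, a fold change of 2 and a mean FPKM of 1 in either stage. DESeq2 1.42.0 and limma 3.58.1 on log2(FPKM + 1) served as alternatives, beside other scalings, filters and thresholds, counts thinned to equal depth, a fit of all 18 libraries, a replicate block and fits without each library in turn. In simulated counts at these depths the test called 53% of genes changed 2.5-fold and 96% of genes changed 4-fold, and 8 unchanged genes of 12139 in all. Only 100 genes were changed at each fold there, and all genes were given the same replicate spread, whereas 54.2% of genes were called in the data. The simulation therefore does not give the share of false or missed calls in the data. A test of whether the stage difference depended on the treatment was added after seeing the data.

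The 25 gene lists, the pairs and the comparison itself were chosen with earlier results of these data known. Genes were named from these lists and pairs, as *Gabpa* and its partners, as the 5 highest by TPM in each stage, and as the 12 largest changes in each direction among called protein-coding genes that had a mean FPKM of 20 or more in either stage and no overlap between stages. Some genes that this rule names are not reported here. Shared sequence is the percent of a gene's 31-base words that occur in another gene's transcripts. The replicates of a stage were compared with each other by chi-square, and their differences were 14.3 and 13.2 times sampling noise at the median, so no library was taken for a copy of another. The dTAG13 libraries of these stages entered the second reading of the stage difference, the other RNA-seq libraries only the fit of all 18, and the remaining samples of the series were not analysed here.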

Additional observations from a re-analysis of the deposited data

Results flagged for a closer look

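The stage difference itself was compared between DMSO and dTAG13 libraries in 1 edgeR fit of 10 libraries with an interaction term, chosen after seeing the data. Of 19860 genes tested, 516 (2.6%) differed, with 477 having a more positive morula minus late two-cell difference with dTAG13 and 39 a more negative one. Of the members of the lists and pairs and the genes named by rule, 47 were among them, and 12 of these are described above with values. Of 67 genes of the oocyte, two-cell and Obox lists in this test, 6 differed. In 4 of these the difference of log2 fold changes was 4.53 for *Obox8* (-9.67 with DMSO and -5.21 with dTAG13, adjusted p = 1.5e-06), 2.67 for *Obox6* (-5.23 and -2.62, adjusted p = 0.00011), 1.72 for *Arg2* (-5.00 and -3.34, adjusted p = 0.0074) and 1.54 for *Omt2b* (-12.59 and -11.12, adjusted p = 0.015). For *Tdpoz4* it was 9.15 (-12.98 and -3.90, adjusted p = 0.0031), where the DMSO value is set against morula libraries at 0 counts and depends on the prior count. It was 1.21 for *Btg1* (-1.28 and -0.14, adjusted p = 0.024), 2.62 for *Gata4* (-6.39 and -3.84, adjusted p = 0.024), 1.05 for *Ccnb1* (-2.46 and -1.47, adjusted p = 0.031) and 1.01 for *Dppa4* (-1.40 and -0.46, adjusted p = 0.0095). *Gata4* had at most 3 counts in every morula DMSO library, so its DMSO value also depends on the prior count. The proteasome and oxidative phosphorylation lists each held more of the 47 genes than the oocyte, two-cell and Obox lists together. All of these proteasome and oxidative phosphorylation genes had a more positive difference with dTAG13. In the proteasome list the difference ranged from 1.05 for *Psmd8* to 3.45 for *Psmb4* (1.51 and 4.89, adjusted p = 3.2e-05). In the oxidative phosphorylation list it ranged from 1.05 for *Atp5e* to 2.04 for *Ndufb9*. The increase was larger with dTAG13 by 1.82 for *Uqcr11* (2.69 and 4.44, adjusted p = 0.0029) and by 1.06 for *Psma7* (3.95 and 4.95, adjusted p = 0.027). For *Col4a2* it was smaller, with a difference of -3.77 (8.47 and 4.65, adjusted p = 0.026), and this gene had at most 3 counts in every late two-cell DMSO library.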

How the results depend on the processing

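Over the alternatives run, 43 of 44 counts of genes called across the transcriptome stayed within 1.5 times the reported count, and the exception was the 2714 genes called higher with a fold change threshold of 4. Leaving out each library in turn gave 3672 to 4374 genes higher and 4836 to 5309 lower, and with 1 morula library left its spread is assumed to be that of the late two-cell libraries. The replicate block gave 4200 higher and 5169 lower. The replicate numbers did not pair the libraries, since deviations from the stage means of same-numbered libraries correlated at 0.01 and 0.03. DESeq2 called 4343 and 5275, and limma on FPKM values 3751 and 5161. Upper-quartile scaling moved the median of all genes from -0.37 to -0.22 and thinning to equal depth to -0.14. Of 275 list medians, 240 moved by less than the spread between replicates, 29 by more with the same sign and 6 changed sign. Of 275 list counts, 272 stayed within 1.5 times the reported count: upper-quartile scaling left 1 mitochondrial mRNA called lower, and without either morula replicate 1 cumulus marker was called higher. The glycolysis median changed sign with upper-quartile scaling (0.01), without late two-cell replicate 1 (0.09) and without morula replicate 1 (0.27), in a range of -0.21 to 0.27 over the libraries left out. The DNA methylation median changed sign without late two-cell replicate 2 (-0.07, range -0.07 to 0.39), and the cumulus marker median without morula replicate 1 (-0.58) or 2 (-1.25, range -1.25 to 1.18). Of named genes, *Rplp0* changed sign with upper-quartile scaling (0.05), and *Mfsd11* (-0.89) with limma on FPKM values. Leaving out 1 morula library changed the sign of *H1f0* (range -0.01 to 0.78), *mt-Ts1* (-0.03 to 0.88) and *mt-Tq* (-0.53 to 0.16). Limma also called *Nr5a2* (-1.04) and *Dnmt3a* (-1.18) lower and lost *Pdgfra* (1.00). Upper-quartile scaling called *Rpl41* (1.12) and *mt-Nd6* (1.07) and lost *mt-Cytb* (-0.99), and thinning called *Rpl41* (1.00). *Hcfc1* lost its call with library totals as the only scaling (0.97) and in the fit of 18 libraries (0.95), and *Btg1* without morula replicate 1 (-0.97), while *Tdpoz2* gained one without late two-cell replicate 2 (-1.0). The cause of these shifts was not tested. At 2 morula libraries of lower depth, genes near 3 counts there carry only a bound.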

Other observations

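Genes of the X chromosome were called lower more often than autosomal genes. Of 534 X-linked protein-coding genes, 216 (40.4%) were called lower and 83 higher, with a median log2 fold change of -1.15, against 3848 lower (28.4%) and 3525 higher of 13571 autosomal protein-coding genes with a median of -0.19. Among genes that reached a mean FPKM of 20 in either stage these values were 72 lower (43.6%) and 35 higher of 165 X-linked genes (median -0.72), and 1637 lower (34%) and 1485 higher of 4816 autosomal genes (median -0.10). Over genes of all kinds, the median of the X chromosome was -1.36 and those of single autosomes ranged from -0.71 to -0.08. *Xist*, the RNA that coats and silences the inactive X, was at 2.49, 0.82 and 0.95 TPM in late two-cell libraries and at 36 and 33.1 TPM in morula libraries (log2 fold change 4.87 ± 0.32, adjusted p = 4.1e-07). The mix of female and male embryos in a library is not given in the sources used here.

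Imprinted genes, which are expressed from 1 parental allele, moved in both directions. Of 28, 24 were tested, 9 were called higher (37.5%, against 24.3% of all genes) and 7 lower (29.2%, against 29.9%), with a median of 0.76. *Phlda2*, a maternally expressed growth regulator, was at 174, 120 and 105 TPM and then at 3.78 and 9.4 TPM (-4.23 ± 0.33, adjusted p = 1.5e-06), and *Cdkn1c*, an inhibitor of cyclin-dependent kinases, fell by 2.89 ± 0.27 on the log2 scale. *Sfmbt2*, a paternally expressed Polycomb gene, went from 1.12, 0.98 and 0.24 TPM to 5.66 and 6.68 TPM (4.33 ± 0.49), and *Slc38a4*, an amino acid transporter, from 0.92 to 1.51 TPM to 7.67 and 10.3 TPM (3.72 ± 0.33). *H19* and *Dlk1* were at 0 in both morula libraries and at 0.21 TPM or less in late two-cell libraries. The tables do not separate parental alleles.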
